A study of Rattus norvegicus with 176 samples.

Results

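Apoa1, Apoc3 and Apoa4 are neighbouring genes that code for the secreted apolipoproteins A-I, C-III and A-IV. Their transcripts were followed on Affymetrix arrays of total RNA from liver sections of F344 rats given clofibric acid (CA), a fibrate drug. The genes were taken by the array's annotation and make up 3 of the 10411 genes that have a probe set naming 1 gene. Each had 1 probe set, 1368335_at for Apoa1, 1370009_at for Apoc3 and 1368520_at for Apoa4, so every value of a gene below comes from a single probe set. The 148 rats belonged to 4 arms: untreated controls, rats with DEN (the field's abbreviation of diethylnitrosamine, a liver carcinogen), rats with CA, and rats with DEN followed by CA (DEN-CA). All 4 arms had groups of 5 rats labelled 5j, 1m, 3m, 9m and 12m, the control and CA arms also had 5 rats each labelled 18m, and the control and DEN arms had 5 rats each labelled -8. A further tag, rev, marked 4 control rats at 12m, 3 control rats at 18m, 6 DEN rats at 12m, 4 CA rats at 18m and 5 DEN-CA rats at 12m, and 6 more CA rats were labelled 18 with no unit. In addition to 1 untagged section per rat, 16 rats of the CA and DEN-CA arms had 23 sections whose tag begins with TU, and 5 of the rats had a section tagged PERI. The labels spell out none of j, rev, TU and PERI, give neither sex nor age, and carry 5000 ppm CA in every title, those of the controls included, so the arm was read from the source label. The labels number each rat, so the spread described is that between animals, but they do not say how a rat's section was chosen.

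Apolipoprotein A-I is the main protein of high density lipoprotein and activates the enzyme LCAT, which esterifies cholesterol there. Apolipoprotein C-III rides on triglyceride-rich particles and slows their lipolysis and their uptake by the liver, and apolipoprotein A-IV is carried on chylomicrons and high density lipoprotein and comes from the intestine and, in rodents, also from the liver. Fibrates are ligands of the nuclear receptor PPARalpha, which switches on genes of fatty acid oxidation. They are known to lower the transcripts of all 3 genes in rat liver, whereas in human liver APOA1 responds the other way. The genes lie side by side in the order Apoa1, Apoc3, Apoa4, Apoa5 in RefSeq, and an enhancer between Apoc3 and Apoa4, bound by Hnf4a, is known to serve the cluster.

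The RefSeq promoter of Apoa4 is shown because this gene carried most of the response described below. It covers the 250 bases before the annotated start, at chr8:55435529-55435778 on the plus strand of GRCr8, written 5′ to 3′, with capitals for 2 of the motifs searched.
Apoa4 promoter: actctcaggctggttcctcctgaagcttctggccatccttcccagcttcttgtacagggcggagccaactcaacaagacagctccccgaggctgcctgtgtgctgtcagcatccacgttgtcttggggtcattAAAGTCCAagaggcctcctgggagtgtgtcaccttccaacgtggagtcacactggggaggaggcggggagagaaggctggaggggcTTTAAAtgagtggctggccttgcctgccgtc
The first capitals mark AAAGTCCA, the core of an Hnf4a-type site, which starts at position -117 from the annotated start. On either strand this motif occurred in 1.37% of the 33469 RefSeq promoters of the same table. The longer form CAAAGTCCA, also searched and found in 0.391% of the promoters, was not in this window on either strand. The second capitals mark TTTAAA at position -31, a motif found in 13.6% of the promoters. The GC-box core GGGCGG, found in 33.1% of promoters, lay at position -194. The nuclear receptor half-site AGGTCA (16.2% of promoters), the DR1 element to which PPARalpha binds (0.0538%), TATAAA (14.2%), CCAAT (37.5%) and CACGTG (6.42%) were not among the letters of this window on either strand. DR1 was searched only as an exact repeat of AGGTCA with any base between the copies. Sites that depart from these letters were not searched. These matches describe the sequence only.

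The deposited MAS5 intensities differed in brightness between arrays, with array medians from 25.35 to 187.25. They were scaled to a common median of 99.35 and compared as log2(intensity + 25), and fold changes below are on that scale, which understates the change of dim values. Of 9 hepatocyte markers on the array, none lay below the 40th percentile of its array in the median section, and their median percentiles ran from 95 to 100 in livers without the drug. The intestine also makes these apolipoproteins. Of the 8 enterocyte markers on the array, 6 (Fabp2, Si, Muc13, Alpi, Slc5a1 and Krt20) lay below the 40th percentile in livers without the drug. The others did not, and the highest of the 8 had a median percentile of 96.3. A part of intestinal cells in these values was not tested. A few sections stood apart. The control rev 18m rat 4043 had the highest summed lymphocyte markers (3965, against a median of 244.7 over all sections) and macrophage markers (14649, median 4484). The untagged section of the DEN-CA rev 12m rat 4111 came next for lymphocyte markers (1776), and 1 of its TU sections had a pancreatic acinar sum of 24473 against a median of 326.2. Comparisons of the rev groups and of the TU sections that hold these rats are given with and without them.

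Without the drug, all 3 transcripts were abundant at every labelled time. Across the 78 untagged sections of control and DEN rats the scaled intensity of Apoa4 ran from 2399 to 8376 with a median of 5345, that of Apoc3 from 9959 to 24616 with a median of 13862, and that of Apoa1 from 5033 to 19426 with a median of 9375. Between the control groups from 5j to 18m no change passed the test for any of the 3 genes. The difference nearest to the threshold was that of Apoc3 at 18m against 5j, -0.47 ± 0.18 (log2 ± SE, limma adjusted p = 0.0972), in a comparison where 7.22% of the 12393 probe sets tested were called. Of the other times against 5j, 0% were called at 1m and 3m, 1.2% at 9m and 6.02% at 12m. DEN alone changed none of them past the threshold at any of 6 times. Its differences from control ran from -0.31 to 0.16 for Apoa4, from -0.18 to 0.09 for Apoc3 and from -0.10 to 0.24 for Apoa1, the lowest unadjusted limma p among them was 0.156, and 0.307% of probe sets were called at -8 0.0403% at 5j, 0.00807% at 3m and 0% at 1m, 9m and 12m.

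**Figure D1:**
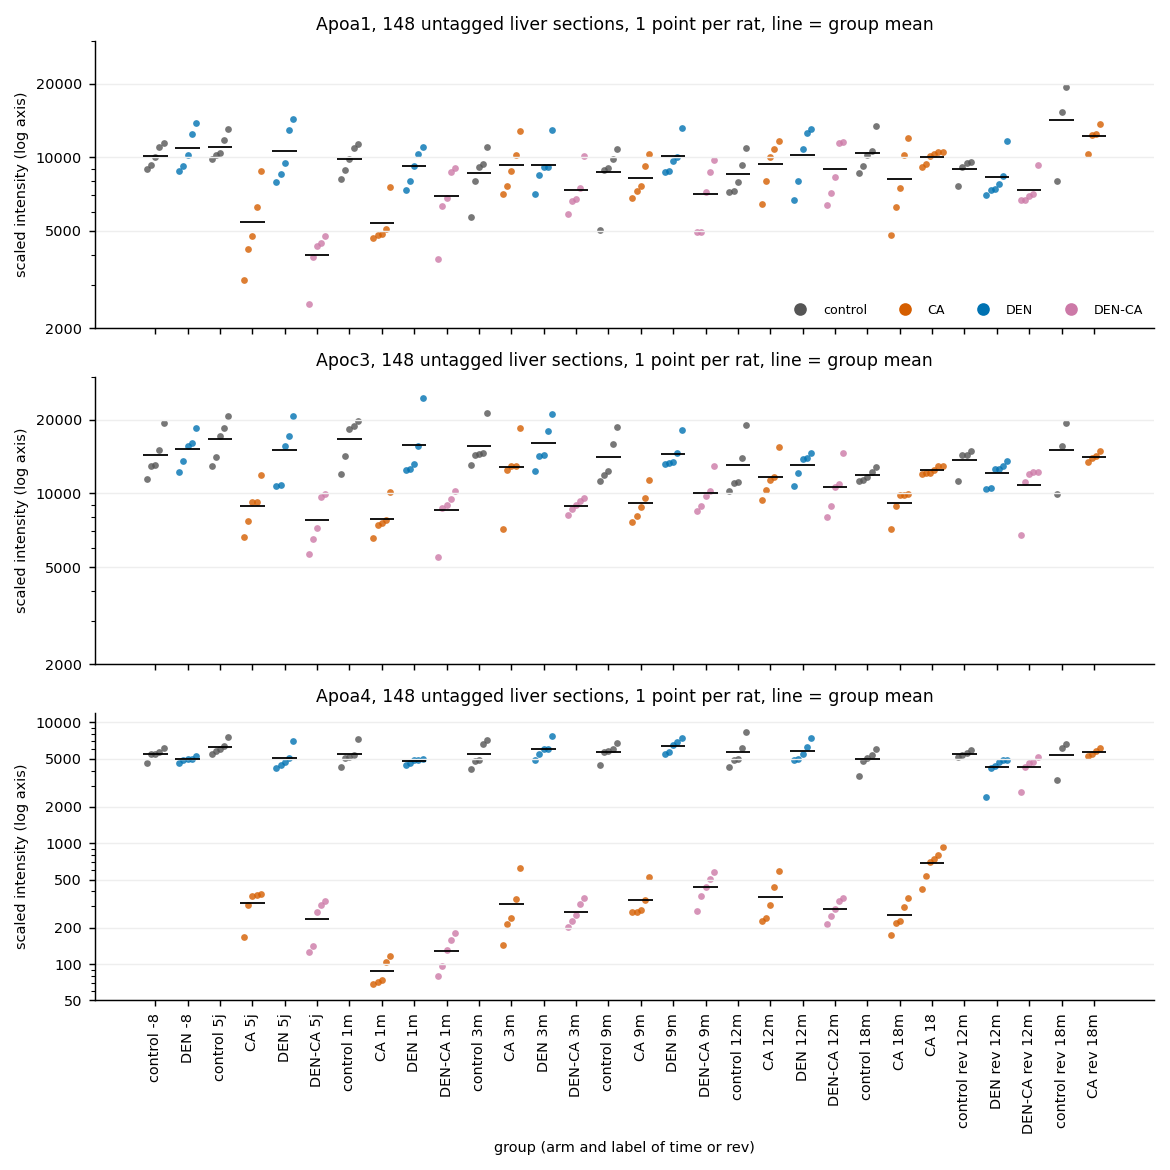
Scaled intensity (log axis) of Apoa1, Apoc3 and Apoa4 in every untagged liver section, by arm and labelled time; each point is 1 rat and each line a group mean. Apoa4 drops from between 2399 and 8376 without the drug to between 67.87 and 932.1 with it, and returns in the rev groups, while the groups of the other 2 genes lie much closer together.

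Apoa4 fell at every time in both arms given the drug. It lay between 67.87 and 932.1 in the 61 untagged sections of rats with CA or DEN-CA and no rev tag, with a median of 281.9, so that no treated section reached the lowest section without the drug. At 5j the CA rats measured 378, 168.7, 310.9, 367.7 and 376.2, and the controls 6420, 5446, 5775, 6024 and 7584. All CA rats lay far below all controls, and the difference was -4.22 ± 0.22, or 18.7-fold (limma adjusted p = 3.2e-35). At 1m the CA rats measured 71.7, 67.87, 117.6, 104.9 and 74.34, among them the lowest value of the series, against 7362, 5397, 5040, 5210 and 4264 in the controls. The fall at 1m was -5.61 ± 0.22, or 48.8-fold (limma adjusted p = 1.4e-47). In these CA rats Apoa4 lay between the 40.2th and the 54.6th percentile of its array, against the 98.7th to 99th in the controls, and since no detection call was used, how much of such a low value is background is not known. At the same time 6 of 7 macrophage markers on the array, 4 of 8 stellate and fibroblast markers and 1 of 9 hepatocyte markers had fallen. In this comparison 8.6% of the 12393 probe sets tested were called lower. The macrophage sum lay at 2642 to 3961 in the CA rats and 4068 to 7792 in the controls. The enterocyte sum was also lower, at 2627 to 2758 against 3374 to 4031. The cholangiocyte sum was higher, at 375 to 472 against 206 to 305, and the ranges of the other lists overlapped. In the CA rats 6 of 8 enterocyte and 3 of 4 cholangiocyte markers lay below the 40th percentile. The part of these markers in the fall of Apoa4 was not tested.

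The later falls of Apoa4 were close to that at 5j. The CA rats ran from 145 to 620.4 at 3m (-4.16), from 270.9 to 529 at 9m (-4.02), and from 225.5 to 592.5 at 12m (-3.95, each SE 0.22). At 18m they measured 295.3, 220.1, 228.2, 349.8 and 173.8 against 4818, 6073, 5127, 3628 and 5406 in the controls, a difference of -4.19 ± 0.22, or 18.3-fold (limma adjusted p = 6.6e-35). After DEN the drug lowered Apoa4 to 126.4 to 330.6 at 5j (-4.36), to 79.79 to 179.9 at 1m (-4.99), to 201.6 to 353.7 at 3m (-4.37), to 277.6 to 574 at 9m (-3.84) and to 214.8 to 355.1 at 12m (-4.23). The highest limma adjusted p of these 5 was 1.9e-31, and no group overlapped its control in any of the 11 comparisons. The share of all probe sets whose groups did not overlap was not counted, in these or any other comparisons. Within sections with the suffix B in their title the log2 change ran from -5.33 to -3.13 over the 8 times that allowed it, and within those without it from -5.69 to -3.95 over all 11. The share of all probe sets called lower was 6.95% at 5j, 8.6% at 1m, 7.24% at 3m, 2.82% at 9m, 5.07% at 12m and 3.6% at 18m for CA, and 4.11%, 5.43%, 4.43%, 4.78% and 3.77% from 5j to 12m for DEN-CA. No probe set of the 12393 tested had a lower log2 change than Apoa4 in 9 of the 11 comparisons, and 1 had in the comparisons at 12m. The fall at 1m was larger than that at 5j in the CA arm by -1.38 ± 0.31 (limma adjusted p = 0.0324, 0.0646% of probe sets called). That difference was no longer past the threshold in 13 of the 20 fits that left out 1 rat (log2 difference from -1.58 to -1.27), nor with an offset of 99 (-0.94, adjusted p = 0.326), and in the DEN-CA arm it was -0.63 (adjusted p = 0.597).

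Apoc3 fell at 5j, 1m and 9m in the CA arm and at 5j, 1m and 3m after DEN, by about 1 log2 unit or less. At 5j the CA rats measured 11848, 6632, 9221, 9217 and 7725 against 14074, 12994, 20714, 17167 and 18551 in the controls, with no overlap, a fall of 0.91 on the log2 scale (SE 0.18, 1.88-fold, limma adjusted p = 9.0e-05). At 1m the range was 6556 to 10186 against 12056 to 19868, again with no overlap, and the fall was -1.07 ± 0.18 (2.09-fold, adjusted p = 2.4e-06). At 9m Apoc3 was lower by -0.61 ± 0.18 (adjusted p = 0.0207), with 1 CA rat at 11390 above the lowest control at 11203. The differences of -0.32 at 3m (adjusted p = 0.242), -0.15 at 12m (0.679) and -0.39 at 18m (0.214) did not pass, although at 18m the CA rats, with 9869, 8851, 9858, 7182 and 9912, all lay below the controls, with 11337, 12868, 12296, 11243 and 11723. After DEN, Apoc3 fell at 5j (-0.93), 1m (-0.85) and 3m (-0.82, highest adjusted p = 4.5e-04), in each case with no overlap. At 9m the difference of -0.54 was at the threshold (adjusted p = 0.0502), although the DEN-CA rats, at 8481 to 12939, lay below the DEN rats, at 13194 to 18210, and at 12m it was -0.32 (adjusted p = 0.347). How many of all probe sets lacked overlap in these comparisons was not counted.

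How many times Apoc3 was called depended on the scaling. Its probe set was between the 4th and the 15th brightest of its array in livers without the drug, and its deposited value spanned only 2-fold over those 78 sections (8821 to 17680), against 3.83-fold for Apoa1 and 5.09-fold for Apoa4. Its scaled value ran opposite to the brightness of the array: over the 148 untagged sections the deviation from the group mean had a Pearson r of -0.754 with the log2 array median, compared with -0.417 for Apoa1 and -0.153 for Apoa4. The arrays of the CA 3m rats were the dimmest, with a median array median of 43.5, compared with 90.4 for the controls of that time. With the log2 array median as a covariate, an alternative chosen after seeing the data, Apoc3 was past the threshold at 5 of 6 times of the CA arm (3m -0.82, 18m -0.39) and 4 of 5 of the DEN-CA arm, and with quantile normalization at all 11 times (from -0.21 at DEN-CA 9m). Without any scaling it was past at 3m in the CA arm (-1.28), but not at 9m in that arm (-0.44) nor at 1m and 3m after DEN (-0.47 and -0.44). Leaving out 1 rat ended the call at CA 9m in 4 of 10 fits (log2 difference from -0.70 to -0.50). A suffix B, not spelled out, stands on 46 of the untagged sections. At 8 times both kinds of section allowed the comparison. The difference of Apoc3 there was smaller with the suffix (from -0.88 at CA 5j to -0.09 at CA 3m) than without it (from -1.83 at DEN-CA 1m to -0.45 at CA 3m). Except at DEN-CA 5j, at least 1 of the groups compared held only 1 section. The -0.09 rests on 1 CA rat. The -1.83 rests on DEN-CA rat 4090 alone, the lowest of its group at 5521. Among the calls with more than 1 B section in each group, that at CA 5j was past the threshold within the B sections. Those at DEN-CA 5j, 1m and 3m were not. The cause was not tested.

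Apoa1 fell early and was not called lower at the later times. The CA rats at 5j measured 6286, 3159, 8783, 4791 and 4237 against 10207, 10421, 9886, 11783 and 13019 in the controls, with no overlap, a fall of -1.10 ± 0.21 (2.14-fold, limma adjusted p = 4.3e-05). At 1m the CA rats measured 4838, 4828, 4676, 7571 and 5108 and all controls 8166 or more, and the fall was -0.87 ± 0.21 (1.83-fold, adjusted p = 0.00131), although without scaling it was not past the threshold (-0.81). Within the B sections, which hold 1 CA rat at that time, the difference was -0.30. From 3m on the CA and control rats overlapped: the differences were 0.11 at 3m, -0.05 at 9m, 0.12 at 12m and -0.41 at 18m (adjusted p from 0.278 to 0.944). Without scaling the difference at 3m was -0.85 and past the threshold, the reverse of the scaled value. After DEN, Apoa1 fell at 5j, where the DEN-CA rats measured 2519, 4348, 3898, 4791 and 4458 and the DEN rats 9494, 12889, 8516, 7909 and 14348. That fall was -1.40 ± 0.21, or 2.64-fold (adjusted p = 8.8e-08). At 1m, 3m, 9m and 12m the differences were -0.45, -0.34, -0.54 and -0.19 (adjusted p from 0.105 to 0.722).

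The change of the drug effect over time was tested for each gene as a difference from the effect at 5j. The effect on Apoa1 was higher, that is nearer to 0, by 1.2 ± 0.30 at 3m (limma adjusted p = 0.0407, 0.21% of probe sets called) and by 1.22 ± 0.30 at 12m (0.00886, 2.07%) in the CA arm, and by 1.21 ± 0.30 at 12m in the DEN-CA arm (0.0137, 0.888%). The first of these lost the threshold in 14 of 20 fits without 1 rat (1.03 to 1.40) and the last in 4 of 20 (1.05 to 1.32), and without scaling none of the 3 was past it (0.64, 1.40 and 1.26). For Apoc3 none of the 9 differences passed (from -0.16 to 0.76, lowest adjusted p = 0.104), where 0.0646% to 2.12% of probe sets were called (CA 9m 0.734%, CA 18m 0.726%, DEN-CA 1m 0.266%, 3m 0.589% and 9m 2.12%), whereas with quantile normalization 7 did, from 0.36 at CA 3m to 0.69 at DEN-CA 9m. The difference between the arms, the drug effect after DEN minus that without DEN, passed for none of the genes at any of the 5 shared times, where 0.0403% of probe sets were called at 5j, 0.218% at 3m, 0.00807% at 9m and 0% at 1m and 12m. Without scaling the difference at 3m, where the CA arrays were dimmest, turned to 0.89 for Apoa1, 0.85 for Apoc3 and 0.92 for Apoa4, past the threshold. As a mean over the 5 times it was 0.03 for Apoa4 (95% confidence interval -0.24 to 0.31), -0.08 for Apoc3 (-0.30 to 0.15) and -0.22 for Apoa1 (-0.49 to 0.04), in a comparison where 0.0403% of probe sets were called.

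The falls of the 3 neighbours were set against each other within each array, as the difference of 2 log2 values in the same section. The log2 change of Apoa4 minus that of Apoc3 ran from -4.54 to -3.31 over the 11 comparisons, and minus that of Apoa1 from -4.74 to -2.96. In each of these the treated and untreated rats did not overlap, and the two-sided exact permutation test of 5 against 5 gave its smallest possible p of 0.00794, adjusted to 0.0119 over the 33 tests of this family. The falls of Apoc3 and Apoa1 differed past the threshold at DEN-CA 1m (Apoc3 lower by -0.40, exact p = 0.0317, adjusted 0.0437) and DEN-CA 3m (-0.48, exact p = 0.0238, adjusted 0.0342). With 1 rat left out, in a smaller test, 9 of 10 and 7 of 10 lost the call, while the differences ran from -0.52 to -0.30 and from -0.56 to -0.37. At the other 9 comparisons the difference between these genes ran from -0.56 to 0.47 (adjusted exact permutation p from 0.0524 to 0.976).

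In the rats tagged rev, Apoa4 overlapped livers without the drug. The 4 CA rev 18m rats measured 5257, 5487, 5754 and 6152, the 3 control rev 18m rats 3317, 6604 and 6110, and the CA rats of 18m without the tag at most 349.8. The CA rev rats differed from their rev controls by 0.14 ± 0.27 (limma adjusted p = 0.935, 95% confidence interval -0.38 to 0.67, 0.734% of probe sets called), or by -0.17 without rat 4043. They were higher than the CA rats without the tag by 4.39 ± 0.23, or 20.9-fold (adjusted p = 2.4e-34, 6.27% of probe sets called higher). After DEN, the 5 rev rats measured 2659, 4605, 4697, 4315 and 5178 and their 6 DEN rev controls 2399 to 4938 with a median of 4530, a difference of 0.02 ± 0.21 (adjusted p = 1, confidence interval -0.40 to 0.43, 0.121% called), or 0.18 without rat 4111. They were higher than DEN-CA 12m rats by 3.77 ± 0.22, or 13.7-fold (adjusted p = 1.0e-30, 7.82% called higher), and by 3.93 without rat 4111, the lowest of them. The drug effect with the tag minus that without it was 4.33 ± 0.34 at 18m and 4.24 ± 0.30 at 12m after DEN (highest adjusted p = 6.1e-20), in comparisons where 1.46% and 2.3% of probe sets were called; without rats 4043 and 4111 the values were 4.02 and 4.40.

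Apoc3 and Apoa1 were higher in CA rev 18m than in CA 18m, but the drug effect with the tag did not differ past the threshold from that without it. That difference was 0.35 ± 0.28 for Apoc3 (limma adjusted p = 0.704, 0.08 without rat 4043) and 0.27 ± 0.33 for Apoa1 (0.833, and -0.095 without that rat), and after DEN 0.14 and 0.02 (0.30 and 0.04 without rat 4111). Apoc3 measured 14196, 14986, 13402 and 13961 in the CA rev 18m rats, all above the 7182 to 9912 of CA 18m, a rise of 0.64 ± 0.19 (limma adjusted p = 0.013). Apoa1 measured 12456, 13732, 10372 and 12349 against 4807 to 11953, a rise of 0.65 ± 0.22 (adjusted p = 0.0336). The call for Apoa1 was lost in 5 of 9 fits without 1 rat (0.48 to 0.81), with quantile normalization (0.33), without scaling (0.24) and with the array median as a covariate (0.51), and that for Apoc3 without CA rat 4145 (adjusted p = 0.051) and without scaling (0.23). In the same comparison 2 of 9 hepatocyte markers rose with a median change of 0.46 over the list, against 0.02 over all genes, and 4 of 7 macrophage markers rose with a median of 0.78. Of all 12393 probe sets tested, 6.27% were called higher there. The summed markers of hepatocytes (103987 to 121334 against 61883 to 98767), macrophages (6943 to 10335 against 4884 to 5733), stellate cells and fibroblasts (1222 to 1491 against 779 to 1208), lymphocytes (318 to 480 against 196 to 289) and pancreatic acinar cells (349 to 432 against 242 to 340) were higher in CA rev 18m without overlap. Those of cholangiocytes (308 to 353 against 486 to 621) and enterocytes (1365 to 2088 against 2229 to 2954) were lower without overlap, and those of endothelial cells overlapped. In CA rev 18m, 7 of 9 acinar, 3 of 5 lymphocyte, 5 of 8 enterocyte and 3 of 4 cholangiocyte markers lay below the 40th percentile. The array medians were 76.85 to 87.8 there and 78.05 to 170.8 in CA 18m, and the scaling raises the values of dimmer arrays more. The share of all probe sets without such overlap was not counted. The part of these lists in the rises of Apoc3 and Apoa1 was not tested. Against the rev controls neither differed past the threshold (Apoc3 -0.04, Apoa1 -0.14), and without rat 4043 the values were -0.31 and -0.50. After DEN the rev rats differed from DEN-CA 12m by 0.03 for Apoc3 and -0.26 for Apoa1, neither past the threshold, or by 0.19 and -0.24 without rat 4111. The rev controls differed from the controls of the same time past the threshold for none of the 3 genes. Between DEN rev 12m and DEN 12m Apoa4 differed by -0.47 ± 0.21 (adjusted p = 0.77). Between control rev 18m and control 18m Apoa1 differed by 0.38, Apoc3 by 0.28 and Apoa4 by 0.05, and without rat 4043 by 0.75, 0.55 and 0.36 (limma adjusted p = 0.0885, 0.151 and 0.486). In these comparisons 9.79%, 0.121% and 0.0323% of probe sets were called for control 18m, control 12m and DEN 12m.

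The 6 CA rats labelled 18 without a unit had Apoa4 values between those of CA 18m and control 18m, from 415.5 to 932.1 with a median of 727.1. They overlapped neither group. Apoa4 was lower than in control 18m by -2.84 ± 0.21, or 7.18-fold (limma adjusted p = 5.5e-23, 11.2% of probe sets called lower), and higher than in CA 18m by 1.35 ± 0.21, or 2.55-fold (adjusted p = 2.3e-06, 3.85% called higher). No control group carries the label 18, so a difference in age or time between these groups cannot be told apart from other differences. Apoc3 lay between 12025 and 12937 in them, close to the controls of 18m (0.07, adjusted p = 0.832) and above all CA 18m rats, by 0.45 ± 0.17, which did not pass (0.0893). With quantile normalization the sign against control 18m turned to -0.26, past the threshold. Apoa1 lay between 9161 and 10503 and differed past the threshold from neither group (-0.04 and 0.36).

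Apoa4 was low in the TU sections of rats without the rev tag, where it measured 72.41 to 589.1. Against livers without the drug it was lower by -4.91 ± 0.24 in the TU sections of 4 CA 18m rats, -4.40 ± 0.30 in those of 2 CA 18 rats, -4.05 ± 0.30 in those of 2 CA 12m rats, -3.92 ± 0.26 in those of 3 DEN-CA 12m rats and -4.72 ± 0.26 in those of 3 DEN-CA 9m rats (highest limma adjusted p = 7.0e-23, TU sections of 1 rat averaged). The shares of probe sets called lower were 9.87%, 13.2%, 2.43%, 18.4% and 16.6%. Apoc3 was called lower in the TU sections of CA 18m (-0.62 ± 0.19, adjusted p = 0.0115) and DEN-CA 9m (-0.57 ± 0.21, 0.0257), and Apoa1 in those of CA 18m (-0.66 ± 0.23, 0.0274). The DEN-CA 9m call was lost without TU rat 4103 or DEN rat 4071, and the Apoa1 call in 4 of 9 fits without 1 rat.

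Against the same rat's untagged section, Apoa4 was lower in TU sections of 8 of 9 CA rats, by -1.12 ± 0.26 in the mean (limma adjusted p = 0.0629). The 9 rats include the rev rat 4151, whose untagged section lay at the level without the drug (6152) and whose difference was -3.05. Without rat 4151 the mean of Apoa4 was -0.88, not past the threshold. In rats 4152 and 4156, labelled 18, Apoa4 went from 747.5 and 706.7 to 193.2 and 231.1. In rats 4144 and 4150, of 18m, it went from 228.2 and 173.8 to 111.4 and 84.96. Rat 4143 was the exception, with 220.1 in its untagged section and 206.8, 589.1 and 95.41 in its 3 TU sections. In this comparison no probe set of 11566 was called by limma, while 2522 had an unadjusted p under 0.05. Of 16 fits that each left out 1 rat, only that without rat 4137 changed the call of Apoa4 (-1.23, limma adjusted p = 0.00262). Over the 16 fits the change ran from -1.27 to -0.88 and the adjusted p from 0.00262 to 0.176. The share of all probe sets called without rat 4137 was not counted. Whether that call is particular to Apoa4 therefore cannot be told. In the DEN-CA arm the value was lower in 3 of 7 rats, all 3 of the 9m group (574 to 249.1, 509.9 to 158.7 and 365.3 to 261.4), and -0.22 ± 0.29 in the mean (adjusted p = 0.6, and -0.34 without rat 4111), where 29.7% of probe sets were called. Apoc3 was lower in 9 of 9 CA rats, by -0.38 ± 0.10 (adjusted p = 0.0668), and in 5 of 7 DEN-CA rats, by -0.08 (-0.08 without rat 4111). Its call in the CA arm also changed in 1 of 16 fits, that without rat 4137 (limma adjusted p = 0.00606). The same limit holds for that call. Apoa1 was lower in 7 of 9 CA rats (-0.45 ± 0.17, adjusted p = 0.136, and -0.365 without rat 4151) and higher in 4 of 7 DEN-CA rats (0.45 ± 0.19, 0.0814, and 0.53 without rat 4111). The difference between the arms was 0.90 for Apoa4, 0.30 for Apoc3 and 0.89 for Apoa1, past the threshold for none of them (adjusted p = 0.292, 0.327 and 0.204), and 0.78, 0.30 and 0.97 without rat 4111. Without rat 4151 that for Apoa4 was 0.66.

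The rev rats with a TU section went different ways. In the CA rat 4151 Apoa4 was 6152 in the untagged section and 722.2 in the TU section, a difference of -3.05, and Apoc3 and Apoa1 differed by -0.59 and -1.08. In the DEN-CA rat 4111 Apoa4 was 2659 in the untagged section and 3773 and 3772 in its TU sections. Each is a single animal, so neither difference has a replicate, and rat 4111 is the one with the pancreatic acinar and lymphocyte signals given above. In the 5 PERI sections Apoa4 stayed near the rat's own untagged value (differences from -0.27 to 0.11), at -0.07 ± 0.12 (adjusted p = 0.98), Apoc3 at -0.20 ± 0.16 and Apoa1 at -0.52 ± 0.27 (none of 10174 probe sets called by limma, and 1 with an unadjusted p under 0.05). In bulk sections fewer cells that make a transcript and less transcript per cell cannot be told apart.

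**Figure D2:**
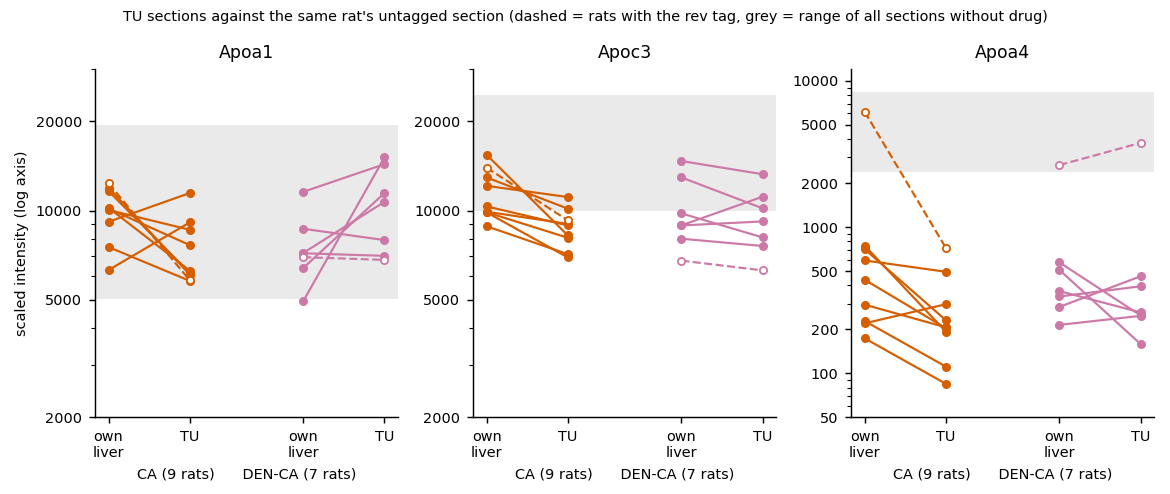
Scaled intensity (log axis) of the 3 genes in the untagged and TU sections of the same rat, joined by a line, for 9 CA and 7 DEN-CA rats; dashed lines are the rev rats and the grey band is the range of all sections without the drug. Apoa4 lies far below the band except in the rev rats, of which the CA rat goes from 6152 to 722.2.

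The genes next to the cluster had smaller log2 changes than Apoa4 where they had any that passed. The fall of Sidt2 at 1m, given below, was near that of Apoa1 at that time (-0.87). Of 12 neighbours listed, 8 were tested. Apoa5, which codes for an activator of lipoprotein lipase and lies next to Apoa4, ran from 3255 to 6988 in the CA groups of 5j to 18m and from 4509 to 7862 in their controls. It fell at 1m (-0.37 ± 0.14, limma adjusted p = 0.0492) and 9m (-0.43, 0.0369) in the CA arm and at 5j (-0.51), 3m (-0.41) and 9m (-0.46) after DEN, and it rose by 0.60 ± 0.14 in CA rev 18m against CA 18m (0.00132). Sidt2, a lysosomal membrane protein, fell at 5j (-0.69 ± 0.13, 6e-05) and 1m (-0.74 ± 0.13, 1.2e-05) but not past the threshold at 18m (-0.36, 0.0867). At 5j the other 7 neighbours, Pcsk7, Apoa5, Bace1, Sik3, Pafah1b2, Bud13 and Cep164, did not pass (from -0.25 to 0.21), and the median of the 8 was 0.01 against -0.03 over 8733 genes. At 18m none of the 8 passed. In CA rev 18m against CA 18m Sik3, a kinase gene, fell by -0.50 ± 0.16 (0.0245).

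**Figure D3:**
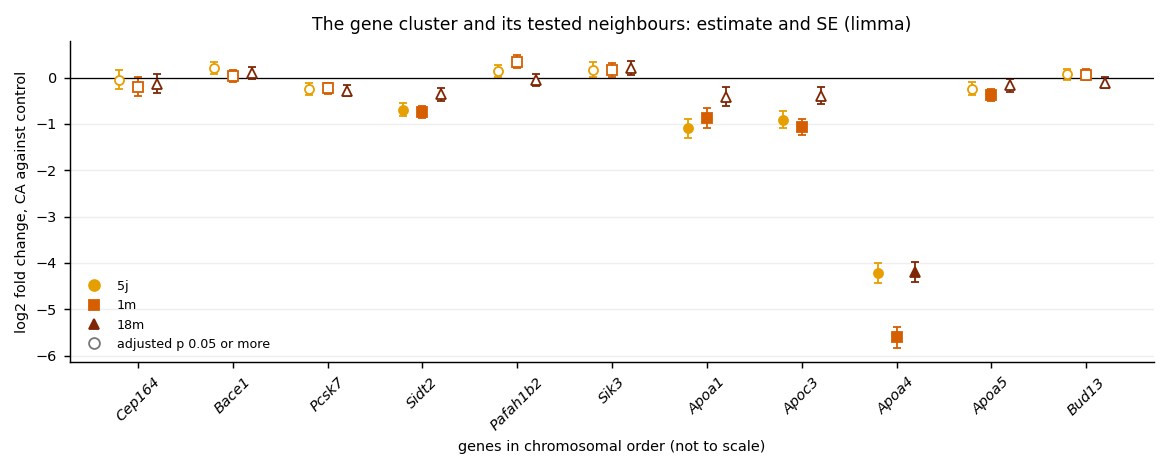
Log2 change with CA against control at 5j, 1m and 18m for the genes of the region in their RefSeq order, from Cep164 to Bud13, with standard errors; open symbols did not pass the threshold. Apoa4 stands at -4.22, -5.61 and -4.19, and its neighbour Apoa5 at -0.24, -0.37 and -0.17.

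Among other lipoprotein genes the response was mixed. Of 20 tested, 3 rose and 4 fell at 5j (4.1% and 7.11% of 8733 genes), 3 rose and 6 fell at 1m (5.45% and 9.22% of genes), 2 rose and 5 fell at 18m (3.69% and 3.57%), with a list median of -0.06, -0.16 and -0.18. At 5j Lpl, which codes for lipoprotein lipase, the enzyme that apolipoprotein C-III restrains, rose by 2.08 ± 0.22. Apom, an apolipoprotein of high density lipoprotein, fell by -1.47 ± 0.20, Lcat by -0.87 ± 0.14 and Apoc4 by -0.99 ± 0.18 (highest limma adjusted p = 1.9e-05). At 18m Apom was still lower (-1.52 ± 0.20) and Lpl (1.39 ± 0.22) and the very low density lipoprotein receptor gene Vldlr (1.79 ± 0.23) higher. In CA rev 18m against CA 18m 8 rose and 2 fell (6.92% and 7.96% of genes): Apom by 1.5 and Angptl4 by 1.43 upward, Vldlr by -1.74 and Lpl by -1.40 downward.

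Genes of factors known to act on these promoters rose in part and fell in part. Of 24 tested, 4 rose and 2 fell at 5j (4.1% and 7.11% of all genes), 3 rose at 1m (5.45% of genes rose) and 1 fell at 18m (3.57% fell). At 5j Egr1, an immediate early factor, differed by -2.08 ± 0.42, Srebf1 by 1.39 ± 0.32, Mlxipl by 0.74 ± 0.19 and Rxra, the partner of PPARalpha, by 0.79 ± 0.20 (highest limma adjusted p = 0.00327). At 18m Foxa3, a hepatocyte forkhead factor, was called (-1.16 ± 0.20, 6.6e-06). In CA rev 18m against CA 18m 7 of the 24 fell (7.96% of genes), led by Rxra (-1.96 ± 0.21), Cebpa (-1.63 ± 0.28), Hnf4a (-1.11 ± 0.23) and Srebf1 (-1.43 ± 0.34), with a list median of -0.32. Of 13 PPARalpha targets, 11 rose at 5j (median 1.62), 9 at 1m (1.56) and 7 at 18m, when 1 fell (0.64), where 4.1%, 5.45% and 3.69% of all genes rose and 3.57% fell at 18m. At 5j the acyl-CoA thioesterase gene Acot1 rose by 5.62 ± 0.34, Ehhadh, of peroxisomal beta-oxidation, by 2.64 ± 0.22, Cpt1b by 2.39 ± 0.20 and the fatty acid transporter gene Cd36 by 3.53 ± 0.31. In CA rev 18m against CA 18m 7 of the 13 fell and Angptl4 rose (median -0.76, with 7.96% and 6.92% of all genes), among them Vnn1 (-3.69 ± 0.38) and Acot1 (-3.02 ± 0.36).

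Rats of the same group that had more of one of the 3 transcripts also had more of the others, on the median scale. Over the 148 untagged sections the deviations from the group mean correlated between Apoa1 and Apoc3 with a Pearson r of 0.608 and a Spearman rho of 0.608, between Apoa1 and Apoa4 with 0.444 and 0.444, and between Apoc3 and Apoa4 with 0.494 and 0.485 (each permutation p = 1e-05, the smallest that 100000 permutations can give, adjusted 2e-05 over 30 tests). Without the 2 sections farthest from the median on the x axis r was 0.600, 0.439 and 0.482. Among the 46 sections with the suffix B r was 0.602, 0.386 and 0.284, the last pair with permutation p of 0.087 and 0.221, and among the 102 without it 0.634, 0.424 and 0.595. All points share the scaling to the array median, with which the 3 genes correlate as given above. With quantile normalization r was 0.186 for Apoa1 and Apoc3 and 0.192 for Apoa1 and Apoa4, neither past the threshold, and 0.441 for Apoc3 and Apoa4.

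Over the 30 group means, the genes most like Apoa4 among 8733 were St6gal1, a sialyltransferase gene (r = 0.982), Oat, which codes for ornithine aminotransferase (0.981), Slc27a5, of bile acid conjugation (0.972), Xdh, for xanthine dehydrogenase (0.971), and Dpt, for dermatopontin (0.963). Its neighbours came lower, Apoc3 at rank 102 (0.871), Apoa5 at rank 571 (0.699) and Apoa1 at rank 705 (0.662). Apoc3 was most like Cpb2, for a plasma carboxypeptidase (0.920), Ang (0.898), Apcs (0.895), Fetub (0.889) and Zw10 (0.872), with Apoa4 next at rank 6. Apoa1 was most like Cpb2 (0.873), Lyz2 (0.848), Gamt (0.836), Apoc4 (0.832) and Praf2 (0.832), with Apoc3 at rank 6 (0.809). These correlations describe group means that share arrays and scaling. The group means of Apoa4 ranged over 5.85 on the log2 scale, those of Apoa1 over 1.77 and those of Apoc3 over 1.11.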

How the data were processed

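Total RNA of 176 liver sections was measured on Affymetrix rat arrays of 15922 probe sets. The deposited values are MAS5 intensities, per the submitters' processing notes; the version and the scaling target are not given in the sources used here, and no detection call was used. Probe sets were named from the platform annotation, updated by Entrez ID where possible: 12783 name 1 gene, 312 several and 2827 none. Intensities were scaled to a common array median, 25 was added and log2 was taken. A probe set was kept where at least 3 arrays placed it above their 40th percentile, and was tested with limma 3.58.1 (R 4.3.3; lmFit and eBayes with trend, two-sided), with Benjamini-Hochberg adjustment over all kept probe sets and a threshold of 0.05. The 3 genes passed this filter in every fit. The 148 untagged sections entered 1 fit with a mean per group (30 groups, 118 residual degrees of freedom), as the design gives 5 arrays for most groups and their number limits the precision. TU and PERI sections were compared with the same rat's untagged section as differences per rat, with several TU sections averaged first; sections with the same rat number come from the same animal, so the rat number pairs them by design. TU sections were compared with untreated livers with the rat as a random block (within-rat correlation 0.05). Falls of 2 genes were compared by exact permutation tests (Python 3.11.15, scipy 1.17.1). On simulated data the test at 18m called 28% of changes of 0.5, 86% of changes of 1 and 98% of changes of 2 on the log2 scale, on 12393 probe sets. The genes, the lists and the alternatives were chosen with earlier results of these data known. Named genes are the 3 members, from each list up to 4 genes, by smallest p-value (all of the neighbours, a list of 12), and for each member the 5 genes with the most similar group means. Alternatives were other offsets, filters and scalings, array weights, the groups of a comparison alone, the suffix B, and leaving out each rat.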

Additional observations from a re-analysis of the deposited data

Results flagged for a closer look

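By Dixon's criterion 1 section stood apart from the others of its group in 11 of 93 sets of values, and chance alone gives about 1 in 20. All 11 were untagged sections, 1 per rat, in groups of 4 to 6 rats. The 93 sets go beyond the untagged groups of that size. For Apoa4 these were the lowest rats of CA 5j (rat 4118, 169 in scaled intensity), DEN rev 12m (rat 4083, 2399) and DEN-CA rev 12m (rat 4111, 2659). For Apoc3 they were the lowest of DEN-CA 1m (rat 4090, 5521), DEN-CA rev 12m (rat 4111, 6775) and control rev 12m (rat 4032, 11300) and the highest of control 3m (rat 4019, 21368). For Apoa1 they were the highest of CA 1m (rat 4125, 7571), DEN rev 12m (rat 4084, 11722) and DEN-CA rev 12m (rat 4113, 9266) and the lowest of control 9m (rat 4027, 5033). Rat 4111 was the lowest of its group for both Apoa4 and Apoc3, and its untagged section had the second highest lymphocyte marker sum of the series (1776).

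Drug effects differed between times or tags, by limma's test of the difference, in 6 cases. The effect on Apoa1 was higher than at 5j by 1.2 at CA 3m, 1.22 at CA 12m and 1.21 at DEN-CA 12m on the log2 scale. The effect on Apoa4 at CA 1m differed from that at 5j by -1.38. The effect on Apoa4 with the rev tag differed from that without it by 4.33 at 18m and by 4.24 at 12m after DEN.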

How the results depend on the processing

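The falls of Apoa4 with the drug and its rises with the rev tag kept their direction and their side of the threshold in every alternative run. The calls of Apoc3 and Apoa1 were less stable, as were the differences between times; where a call changed, the cause was not tested unless fewer samples were fitted. The alternative of other probe sets could not be run, since each gene has 1. Pairing TU and PERI sections by rat changed no call: without the replicate block the TU sections of the CA arm differed from liver by -1.12 for Apoa4, -0.38 for Apoc3 and -0.45 for Apoa1.

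Results that became past the threshold are given first. With the filter at the 70th percentile these were Apoc3 at DEN-CA 9m (-0.54), the effect differences of Apoa1 from 5j at CA 9m (1.05) and DEN-CA 3m (1.06), and TU against own liver in the CA arm for Apoc3 (-0.38) and Apoa4 (-1.12). With array weights they were Apoc3 at CA 18m (-0.44), DEN-CA 9m (-0.51), DEN-CA 12m (-0.39) and CA 18 against CA 18m (0.46), and TU against own liver for Apoc3 (-0.38) and Apoa4 (-1.15) in the CA arm and Apoa1 in the DEN-CA arm (0.57). With an offset of 99 they were Apoc3 at DEN-CA 9m (-0.53) and the TU differences of the CA arm for Apoc3 (-0.38) and Apoa4 (-0.94). With only the groups compared they were Apoc3 at CA 18m (-0.39), DEN-CA 9m (-0.54) and CA 18 against CA 18m (0.45), and with the suffix B as a covariate Apoc3 in control 18m against 5j (-0.57). With the log2 array median as a covariate they were Apoc3 at CA 3m (-0.82), CA 18m (-0.39) and DEN-CA 12m (-0.43), and the differences from 5j for Apoc3 at CA 12m (0.85), CA 18m (0.72), DEN-CA 9m (0.78) and DEN-CA 12m (0.64) and for Apoa1 at CA 9m (1.24) and DEN-CA 1m (1.17), 3m (1.28) and 9m (1.10). With quantile normalization they were Apoc3 at CA 3m (-0.57), 12m (-0.35) and 18m (-0.33) and DEN-CA 9m (-0.21) and 12m (-0.37), and Apoa1 at DEN-CA 1m (-0.51). They also included the differences from 5j of Apoc3 at CA 3m (0.36), 9m (0.55), 12m (0.58) and 18m (0.59) and DEN-CA 3m (0.40), 9m (0.69) and 12m (0.54), and of Apoa1 at CA 9m (1.2) and DEN-CA 1m (0.83), 3m (1.11) and 9m (1.05). The rev differences of Apoc3 at 18m (0.32) and 12m (0.34), DEN-CA rev against DEN-CA 12m (0.33), and TU of CA 18 (-0.30), CA 12m (-0.35) and DEN-CA 12m (-0.31) joined them. Without scaling they were Apoc3 at CA 3m (-1.28), DEN-CA rev against DEN-CA 12m (0.64) and TU of DEN-CA 12m (-0.63), and the differences from 5j of Apoa1 at CA 9m (1.61) and DEN-CA 1m (1.60), 3m (1.71) and 9m (1.60) and of Apoc3 at DEN-CA 9m (1.14).

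Results that were no longer past the threshold were more often those without scaling: Apoa1 at CA 1m (-0.81), Apoc3 at CA 9m (-0.44) and DEN-CA 1m (-0.47) and 3m (-0.44), the differences from 5j of Apoa4 at CA 1m (-0.91) and Apoa1 at CA 3m (0.64), CA 12m (1.40) and DEN-CA 12m (1.26), CA rev against CA 18m for Apoa1 (0.24) and Apoc3 (0.23), and TU of CA 18m for Apoa1 (-0.43) and Apoc3 (-0.39) and of DEN-CA 9m for Apoc3 (-0.28). The difference of Apoa1 at CA 3m from 5j was lost with array weights (0.95), the array median as a covariate (1.01), no filter (1.2) and only the groups compared (1.2), the last of which also ended that at DEN-CA 12m (1.21). An offset of 99 ended that of Apoa4 at CA 1m (-0.94). CA rev against CA 18m for Apoa1 was lost with the array median as a covariate (0.51) and with quantile normalization (0.33), which also ended the correlations of Apoa1 with Apoc3 (0.186) and Apoa4 (0.192). The first TU section of each rat ended the call of Apoa1 for TU of CA 18m (-0.46). Within sections with the suffix B, Apoc3 at DEN-CA 5j (-0.74), 1m (-0.45) and 3m (-0.54) was not past the threshold, and these fits hold fewer sections. Some other fits by suffix held 1 section of a group and give an effect size only. Among these were CA 1m (Apoa1 -0.30, Apoc3 -0.36) and CA 9m (Apoc3 -0.35) with the suffix, and CA 5j without it (Apoa1 -0.82). Signs turned without scaling for Apoa1 at CA 3m (-0.85) and for the arm difference at 3m of Apoa1 (0.89), Apoc3 (0.85) and Apoa4 (0.92), and with quantile normalization for Apoc3 in CA 18 against control 18m (-0.26).

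Leaving out 1 rat changed the call in at least 1 fit for these results, with their log2 range: the differences from 5j of Apoa4 at CA 1m (-1.58 to -1.27), of Apoa1 at CA 3m (1.03 to 1.40) and 9m (0.86 to 1.24) and DEN-CA 1m (0.79 to 1.15), 3m (0.90 to 1.18) and 12m (1.05 to 1.32) and of Apoc3 at CA 12m (0.65 to 0.90); CA rev against CA 18m for Apoa1 (0.48 to 0.81) and Apoc3 (0.55 to 0.67); Apoc3 at CA 9m (-0.70 to -0.50) and DEN-CA 9m (-0.63 to -0.45) and Apoa1 at DEN-CA 9m (-0.67 to -0.43). The same held for TU against own liver in the CA arm for Apoc3 (-0.41 to -0.32) and Apoa4 (-1.27 to -0.88), for TU of CA 18m for Apoa1 (-0.79 to -0.57), and for TU of DEN-CA 12m (-0.62 to -0.24) and 9m (-0.68 to -0.45) for Apoc3. Apoc3 minus Apoa1 did so at CA 9m (-0.70 to -0.45) and DEN-CA 5j (0.37 to 0.59), 1m (-0.52 to -0.30) and 3m (-0.56 to -0.37). Where leaving a rat out left a TU group of 1, that rat was assumed to vary like the other groups.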

Other observations

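Apoa4 was low in some livers without the drug that also held marker transcripts of other cells. In scaled intensity it was 3317 in the control rev 18m rat 4043 and 3628 in the control 18m rat 4040, the lowest of their groups, and these rats had the highest and the third highest lymphocyte marker sums of all sections (3965 and 1373, median 244.7). Macrophage sums were 14649 and 10465 in them, against a median of 4484. The second highest macrophage sum, 10608, came from control rev 18m rat 4046. Apart from rat 4043 the rats of that group had Apoa4 at 6110 and 6604. The lowest untreated value of the series, 2399 in the DEN rev 12m rat 4083, came from a section that was not among the 3 highest sums of either list. The relation was not tested.

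In the 7 DEN-CA rats with a TU section, some other lipoprotein genes were lower there than in the rat's own untagged section. These rats include the rev rat 4111. Among its TU sections were the highest pancreatic acinar sum (24473, median 326.2) and the highest stellate and fibroblast sum (4163, median 1299) of all sections. The values that follow are not given without this rat. Of 20 tested 8 fell, none rose and 12 did not pass (18% and 12.5% of 8325 genes), among them Apoa2, for the second protein of high density lipoprotein (-1.60 ± 0.30, limma adjusted p = 0.00128), Lrp1 (-1.21 ± 0.24, 0.00166), Apoc4 (-1.01 ± 0.21, 0.0017) and Lipc, for hepatic lipase (-0.78 ± 0.17, 0.00218). Of 24 factors 14 fell, led by Nr0b2 (-1.74 ± 0.25) and Nr2f2 (-0.88 ± 0.17), and of 13 PPARalpha targets 8 fell, with Cyp4a1 at -1.63 ± 0.36. In the same comparison 6 of 7 macrophage markers and 1 of 9 hepatocyte markers fell and 3 of 8 stellate and fibroblast markers rose and 1 fell; their part in these changes was not tested.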
